A study of Mus musculus with 3 samples.

Results

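T, Tbx6 and Msgn1 are the 3 genes examined here. They were chosen by name, and their members are the ATAC-seq peaks that overlapped each gene body or the 100 kb on either side of it. The windows held 61 of the 129843 peaks listed for SOX2-ON, 59 of the 131520 listed for SOX2-OFF and 80 of the 130348 listed for CEpiLC. Peaks of the 3 lists that overlapped by at least 1 base were merged into 90 regions in these windows, of 219488 merged regions in the genome.

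Accessible chromatin was profiled by ATAC-seq, where a transposase inserts adapters into exposed DNA, in mouse embryonic stem cells after 72 h of differentiation towards caudal epiblast-like cells (CEpiLCs), with 1 sample in each of 3 groups. SOX2-ON and SOX2-OFF were derivatives of a Sox2-/- SOX2 TetON line of HM1 (129) cells, derived from picked clones, in which a doxycycline-inducible Sox2 transgene in the Hprt locus replaced the endogenous gene. The line was cultured in 1 µg/ml doxycycline, which was maintained during differentiation in SOX2-ON and withdrawn in SOX2-OFF. CEpiLC was the wild-type HM1 TetON line, given no doxycycline, so that clone and genotype cannot be told apart between CEpiLC and the other samples. All 3 groups were given the growth factor bFGF (10 ng/ml) together with LGK974 (5 µM), an inhibitor of WNT secretion, and after the first 2 days CHIR99021, an activator of WNT signalling. With 1 sample per group there was no replicate error to compare a difference with, so no p-value was calculated, and values are given as descriptions beside their share over the genome.

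T (Brachyury) and Tbx6 encode T-box transcription factors, which bind DNA through a shared domain, and Msgn1 encodes a basic helix-loop-helix transcription factor. T is the classical marker of the primitive streak and notochord and is needed for axis elongation. Tbx6 and Msgn1 act in the presomitic mesoderm, the tissue that gives rise to somites, and loss of Tbx6 in the mouse turns paraxial mesoderm into ectopic neural tubes. WNT signalling is a known inducer of all 3 genes, whereas SOX2 is associated with the neural and pluripotent fates of the same progenitors.

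The peak lists were called separately in each sample, and the strength of a peak was its −log10 p, which grows with sequencing depth. At rank 20000 of a list it was 26.4 for SOX2-ON, 21.2 for SOX2-OFF and 10.6 for CEpiLC, so strength was compared between lists by the rank within each list, where 1 is the strongest peak. Fold enrichments are printed beside the ranks for reference and depend on the library. Peaks up to rank 20000 are called strong. The median peak width was 621 bp (SOX2-ON), 741 bp (SOX2-OFF) and 526 bp (CEpiLC). Chromosome 6 held 14.8% of the SOX2-ON peaks, 15.3% of the SOX2-OFF peaks and 4.84% of the CEpiLC peaks, chromosome 8 held 12.5%, 12.1% and 4.55%, and chromosome 11 held 5.60%, 5.67% and 16.9%. None of the 3 genes lies on these chromosomes, but their peaks enter the ranks, and the part of this imbalance in the ranks is given as an alternative. A peak at the start of most marker genes was listed in every sample: 7 of 8 caudal epiblast genes in each list (Hoxb8 had none), 5 of 5 neural genes and 6 of 6 early mesendoderm genes in each list, and of 8 pluripotency genes 7 in SOX2-ON, where Esrrb had none, and 8 in the other lists. A start peak is not expression, and these counts do not tell the 3 cell states apart.

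The 3 gene starts showed different patterns. At T and Tbx6 between 8.59% and 20.8% of the peaks in a list were stronger than the start peak, whereas at Msgn1 the SOX2-ON peak was narrow and near the bottom of its list. Against the start peaks of coding genes alone the position was lower: 78.5% (SOX2-ON), 61.4% (SOX2-OFF) and 66.4% (CEpiLC) were stronger than that of T, and 79.4%, 81.8% and 83.0% were stronger than that of Tbx6. A start peak is one within 1 kb of the annotated 5′ end, and 70.7% of 21938 coding genes had one in SOX2-ON compared with 71.5% in SOX2-OFF and 72.1% in CEpiLC. The bases just upstream of each start are shown because the SOX2-OFF and CEpiLC start peaks lie over them, with capitals for the transcription factor motifs named later. The SOX2-ON peak lies over those of T, reaches 40 bp into those of Msgn1 and ends before those of Tbx6.
T, chr17:8434173-8434422, plus strand: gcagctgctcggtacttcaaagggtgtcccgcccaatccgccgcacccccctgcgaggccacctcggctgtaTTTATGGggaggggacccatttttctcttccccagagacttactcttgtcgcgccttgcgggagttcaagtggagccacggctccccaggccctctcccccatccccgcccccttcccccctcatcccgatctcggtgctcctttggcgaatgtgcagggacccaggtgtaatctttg
Tbx6, chr7:126781233-126781482, plus strand: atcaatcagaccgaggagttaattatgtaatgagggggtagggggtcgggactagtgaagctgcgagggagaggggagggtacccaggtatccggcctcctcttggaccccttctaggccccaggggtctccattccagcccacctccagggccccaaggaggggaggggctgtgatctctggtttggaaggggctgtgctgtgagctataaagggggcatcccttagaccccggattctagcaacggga
Msgn1, chr12:11208973-11209198, minus strand: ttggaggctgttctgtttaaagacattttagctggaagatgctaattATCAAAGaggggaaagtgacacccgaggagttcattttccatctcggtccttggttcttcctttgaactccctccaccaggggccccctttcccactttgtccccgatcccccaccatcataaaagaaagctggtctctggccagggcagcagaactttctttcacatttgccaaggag
The sequences are those of RefSeq on GRCm38.p6, the build also called mm10, and are written 5′ to 3′. The T stretch holds TTTATGG, a CDX/HOX motif, at base 73. The Msgn1 stretch holds ATCAAAG, the reverse complement of the TCF/LEF motif CTTTGAT, at base 48. The Tbx6 stretch holds none of the motifs searched.

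At Msgn1 (ENSMUSG00000047002.2, chr12:11208360-11208972, minus strand), the start peak was 306 bp wide in SOX2-ON against 1834 bp in SOX2-OFF and 2148 bp in CEpiLC. Its rank was 113530 in SOX2-ON compared with 18762 in SOX2-OFF and 23243 in CEpiLC, so that 87.4%, 14.3% and 17.8% of the respective list was stronger. Among the start peaks of coding genes alone, 98.5%, 78.8% and 80.7% were stronger. Its fold enrichment over the local background of its own library was 1.53, 2.62 and 2.22. The 3 peaks covered the start itself. SOX2-OFF and CEpiLC lay close together and SOX2-ON stood apart from both. The SOX2-ON rank was 6.05 times the SOX2-OFF rank, and of the 82323 regions with a peak in both lists 0.124% had a ratio this high. The SOX2-OFF peak was 5.99 times as wide, and 1.96% of the shared regions had a ratio of widths this high. A SOX2-OFF peak at least 4 times as wide as that of SOX2-ON was found in 4.99%. Against CEpiLC the rank ratio was 4.88, reached by 0.851% of 66481 shared regions. The SOX2-ON list holds 129843 peaks, so only regions ranked well up in SOX2-OFF or CEpiLC could reach such ratios. Most shared regions could not, and no share among regions of like rank is given. Shares of rank ratios given below have the same kind of limit. The SOX2-ON peak had a −log10 q of 1.38 and was the only one of the 9 start peaks that did not reach 5.

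At T (ENSMUSG00000062327.10, chr17:8434423-8442496, plus strand), the start peak was 1750 bp wide (SOX2-ON), 1384 bp (SOX2-OFF) and 2454 bp (CEpiLC). Its rank was 21225 in SOX2-ON against 11301 in SOX2-OFF and 13877 in CEpiLC. The start was therefore strong in SOX2-OFF and CEpiLC and just past rank 20000 in SOX2-ON. The peak of SOX2-ON ran 811 bp into the gene, that of SOX2-OFF 297 bp and that of CEpiLC 352 bp, while the CEpiLC peak reached furthest upstream, 2101 bp against 938 bp in SOX2-ON and 1086 bp in SOX2-OFF. The SOX2-ON rank was 1.88 times the SOX2-OFF rank, under the ratio of 2 used below.

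At Tbx6 (ENSMUSG00000030699.16, chr7:126781483-126785560, plus strand), the start peak had nearly the same rank in SOX2-ON (22350) and SOX2-OFF (21795) and a lower one in CEpiLC (27173). Its width was 1161 bp, 1518 bp and 1538 bp. The peaks began at about the same place, 1464 bp, 1413 bp and 1410 bp upstream, but ended differently. The SOX2-ON peak stopped 304 bp before the start, whereas those of SOX2-OFF and CEpiLC crossed it and ended 104 bp and 127 bp inside the gene. All 3 peaks overlapped an exon of the neighbouring gene Ypel3 as well as, in SOX2-OFF and CEpiLC, the first exon of Tbx6. The order of the ranks changed with the measure of strength: ranked by fold enrichment, the Tbx6 start was at 42146 in SOX2-ON compared with 57034 in SOX2-OFF and 103288 in CEpiLC.

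**Figure D1:**
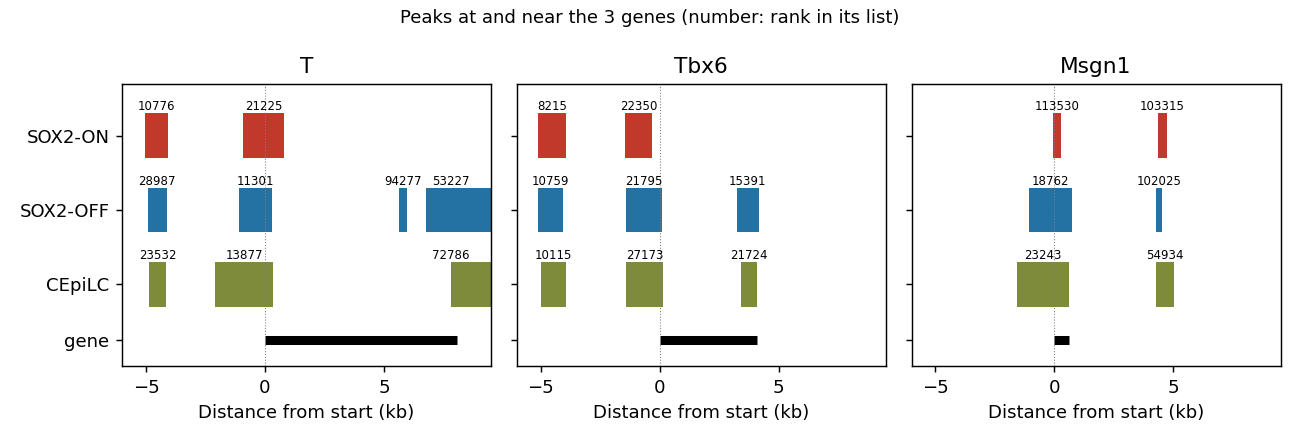
Peaks within about 6 kb upstream and 9.5 kb downstream of the start of T, Tbx6 and Msgn1, by list (red, SOX2-ON; blue, SOX2-OFF; green, CEpiLC), against the distance from the start in kb in the direction of transcription; the number above a peak is its rank and the black bar is the gene. The Msgn1 start peak is narrow and ranked 113530 in SOX2-ON, and the peak at the 3′ end of Tbx6 is missing there.

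Beyond the starts, the windows were compared by peak number and by the lists in which each region held a peak. Peaks were denser here than in the genome in every list, with 9.95 peaks per 100 kb for SOX2-ON, 9.63 for SOX2-OFF and 13.1 for CEpiLC against 4.76, 4.83 and 4.78 over the whole lists. They covered 57.9 kb of the windows for SOX2-ON, 79.7 kb for SOX2-OFF and 75.4 kb for CEpiLC. The Msgn1 window was the sparsest, with 12, 11 and 13 peaks, that of T held 23, 21 and 33, and the gene-dense Tbx6 window, with 16 coding genes, held 26, 27 and 34. In the Tbx6 window only 2 of 39 regions had Tbx6 as the nearest coding start, against 20 of 36 for T and 7 of 15 for Msgn1. Of the 61 SOX2-ON peaks 15 had a −log10 q under 2, of the 59 SOX2-OFF peaks 8 and of the 80 CEpiLC peaks 26. The regions nearest the edges were 99.6 kb from T inside the window and 103 kb outside, 98.1 kb and 101 kb for Tbx6, and 93.2 kb and 106 kb for Msgn1.

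Of the 90 regions, 42 held a peak in all 3 lists (46.7%, Wilson 95% interval 36.7 to 56.9%), and this was the pattern of 27% of the regions in the genome. Regions shared by SOX2-OFF and CEpiLC but not by SOX2-ON numbered 9 (10.0%, 5.35 to 17.9%, against 6.92% in the genome), of which 5 lay near T, 3 near Tbx6 and 1 near Msgn1. Those found in SOX2-ON and SOX2-OFF while absent from CEpiLC numbered 2 (2.22%, 0.612 to 7.74%, against 10.5%), both near Tbx6. Those shared by SOX2-ON and CEpiLC alone numbered 4 (4.44%, 1.74 to 10.9%, against 3.28%). Regions in a single list numbered 11 for SOX2-ON (12.2%, 6.96 to 20.6%, against 16.9%), 6 for SOX2-OFF (6.67%, 3.09 to 13.8%, against 15.1%) and 16 for CEpiLC (17.8%, 11.2 to 26.9%, against 20.3%). The intervals cover counting error only, and neighbouring regions are not independent. The genome's shares lay outside these intervals for regions of all 3 lists, which were more frequent in the windows. They also lay outside for those of SOX2-ON with SOX2-OFF and of SOX2-OFF alone, which were less frequent. For the other 4 patterns, SOX2-OFF with CEpiLC among them, they lay inside. This placing is a description and not a test. The windows were centred on genes, and 18 of the 42 regions of all 3 lists lay in the gene-dense Tbx6 window. Genome shares at like distances from gene starts are not given, so the differences cannot be read as a trait of the 3 genes. The genome's shares include chromosomes 6, 8 and 11, where the lists held unequal shares of peaks, and are not given without them.

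**Figure D2:**
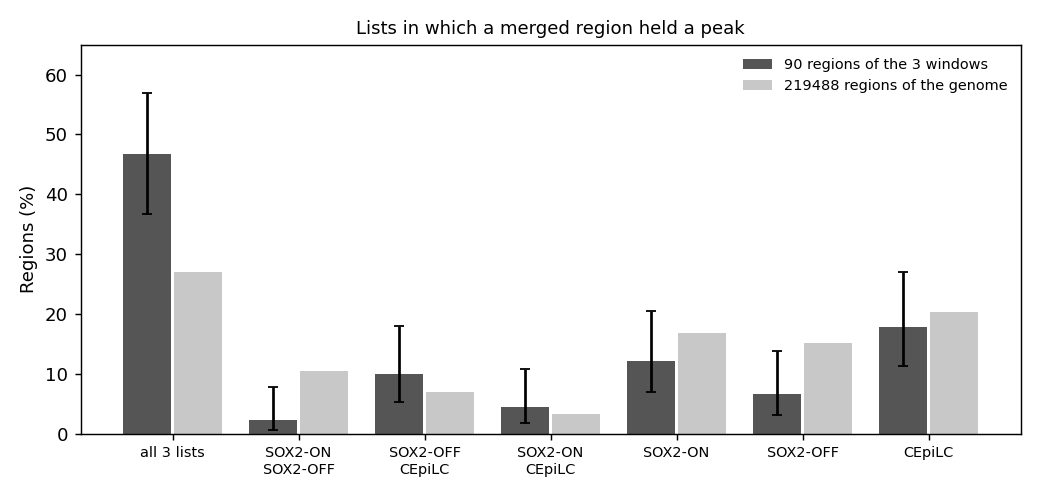
Share of merged regions (%) by the lists in which they held a peak, for the 90 regions of the 3 windows (dark bars, with Wilson 95% intervals) and all 219488 regions of the genome (light bars). The windows held more regions found in all 3 lists, 46.7% against 27%, and fewer of SOX2-ON and SOX2-OFF alone, 2.22% against 10.5%. The genome bars include chromosomes 6, 8 and 11, where the lists held unequal shares of peaks, and are not matched to the windows in distance from gene starts.

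**Figure D3:**
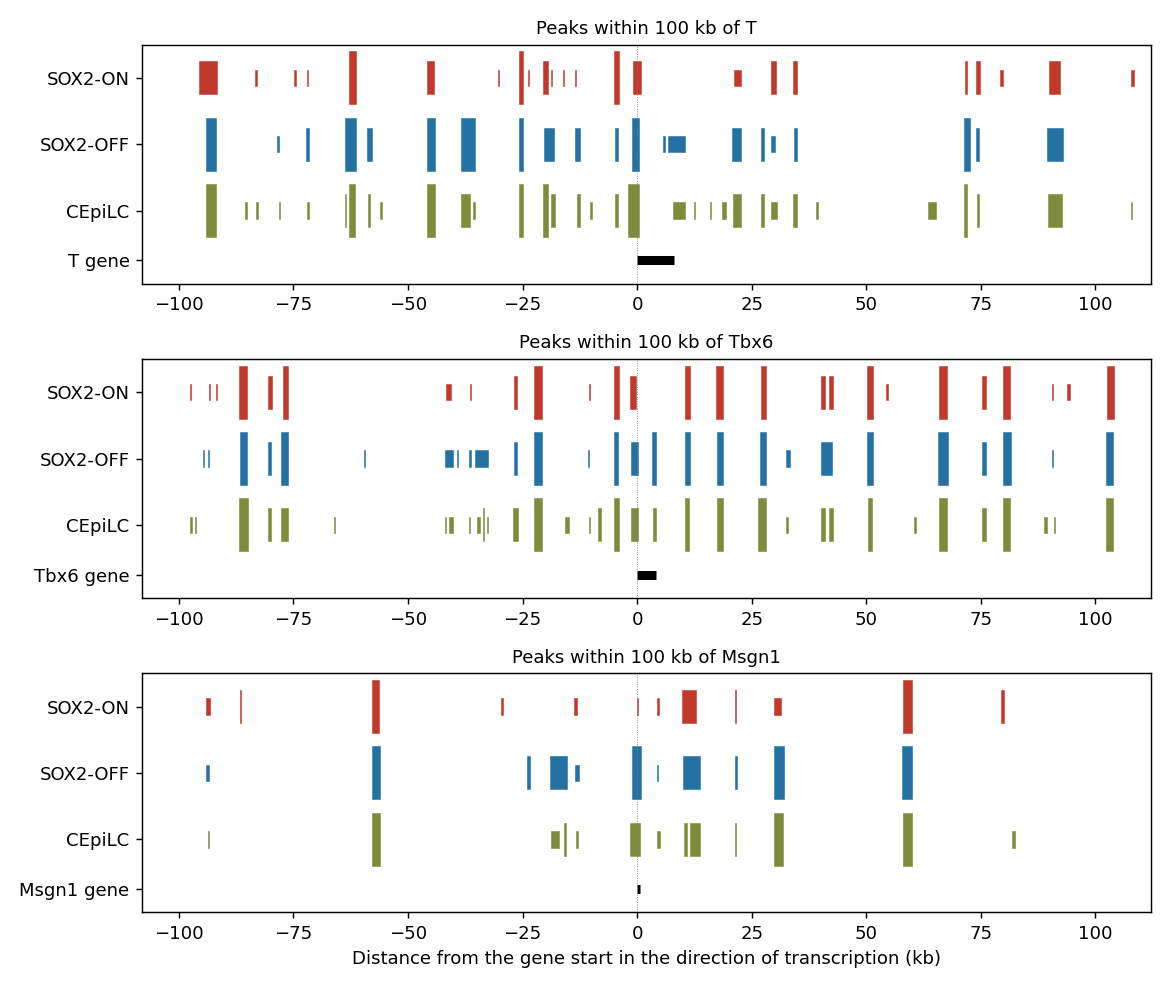
Peaks of the 3 lists (red, SOX2-ON; blue, SOX2-OFF; green, CEpiLC) against the distance from the start of T, Tbx6 and Msgn1 in kb in the direction of transcription. Tall bars are peaks of rank up to 20000, middle bars up to 50000 and short bars weaker peaks; black bars are the genes.

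Strong peaks of one list that were missing from another, with under 10% of their length covered there, were found in 1 direction. Of the 23 strong SOX2-OFF peaks in the windows, 2 were missing from SOX2-ON, and both had a peak in CEpiLC. Over the genome 1.3% of strong SOX2-OFF peaks were missing from SOX2-ON. In the windows, none of the 16 strong SOX2-ON peaks was missing from SOX2-OFF or from CEpiLC, which allows a share of up to 18.8%, where the genome gave 5.04% and 8.58%. None of the 23 strong SOX2-OFF peaks was missing from CEpiLC (up to 13.0%, genome 1.06%), and none of the 20 strong CEpiLC peaks was missing from SOX2-ON or from SOX2-OFF (up to 15.0%, genome 1.42% and 0.62%). Ranked by fold enrichment, neither of the 2 SOX2-OFF peaks was among the 20000 strongest.

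The first of these peaks lay upstream of T, centred at -36.9 kb (chr17:8396021-8399018), over exons of T2, a neighbouring coding gene, and of the transcript AC164431.1. SOX2-OFF had a single peak of 2990 bp at rank 19571 with a fold enrichment of 2.29. CEpiLC had 2 peaks, the stronger one 1895 bp wide at rank 23432 with a fold enrichment of 2.09, and SOX2-ON had none. Its middle, taken between the exons, was
T -36.9 kb, chr17:8397366-8397665, plus strand: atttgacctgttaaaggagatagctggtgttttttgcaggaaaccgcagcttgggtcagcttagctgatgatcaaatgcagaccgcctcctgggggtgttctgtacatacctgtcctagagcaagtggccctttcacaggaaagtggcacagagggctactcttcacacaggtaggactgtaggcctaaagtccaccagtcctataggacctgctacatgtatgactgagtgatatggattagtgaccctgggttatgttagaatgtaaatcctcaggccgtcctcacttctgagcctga
and held none of the motifs searched. The second lay at the 3′ end of Tbx6, centred at 3.7 kb from the start (chr7:126784713-126785663), over the last exons of the gene including its 3′ untranslated region and the bases beyond. SOX2-OFF had a peak of 951 bp at rank 15391 with a fold enrichment of 1.97, CEpiLC one of 706 bp at rank 21724 with 1.78, and SOX2-ON had none. In SOX2-OFF it was the best ranked region of the Tbx6 window with no gene start within 1 kb. Its bases beyond the gene were
Tbx6 3.7 kb, chr7:126785561-126785663, plus strand: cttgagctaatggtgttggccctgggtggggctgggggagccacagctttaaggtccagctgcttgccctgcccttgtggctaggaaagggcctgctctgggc
and held none of the motifs. Its centre, which lies in the exons, held a T-box motif and a GATA motif.

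The other regions of SOX2-OFF and CEpiLC without SOX2-ON were weaker. Near T they were centred at -78.3 kb, at the start of T2 (rank 104935 in SOX2-OFF and 82887 in CEpiLC), at -58.5 kb (25782 and 49701), at 8.6 kb, over the 3′ end of T (53227 and 72786), and at 27.4 kb (46585 and 42256). The one at the 3′ end of T was broad, with 3640 bp in SOX2-OFF and 2553 bp in CEpiLC. Its fold enrichment was 1.57 in SOX2-OFF and 1.64 in CEpiLC, and its −log10 q 3.81 and 1.94. Like Tbx6, T had a peak at its 3′ end in these lists and none in SOX2-ON, but the T peak was much weaker. The −log10 q of the Tbx6 peak was 30.5 and 7.52. Near Tbx6 they were centred at -33.9 kb (62663 and 46515) and at 32.9 kb (66028 and 83836). Near Msgn1 there was 1, at -17.2 kb, with a SOX2-OFF peak of 3664 bp at rank 44084 and 2 CEpiLC peaks, the better at rank 35531.

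Among the 44 window regions with a peak in both SOX2-ON and SOX2-OFF, ranks could be compared directly. In 7 the SOX2-ON rank was at least 2 times the SOX2-OFF rank, which held for 6.68% of shared regions in the genome, and in 1 the SOX2-OFF rank was at least 2 times the SOX2-ON rank, which held for 6.03%. The median log2 ratio of the SOX2-ON to the SOX2-OFF rank was 0.14 over the 44 regions and 0.12 over the genome. Between SOX2-ON and CEpiLC, 9 of 46 shared window regions had a SOX2-ON rank at least 2 times the CEpiLC rank (12.8% in the genome) and 5 the reverse (9.46%). Between SOX2-OFF and CEpiLC, which shared 51 window regions, 1 had a SOX2-OFF rank at least 2 times the CEpiLC rank (6.3%) and 2 the reverse (6.64%). The 7 regions that ranked lower in SOX2-ON were the start of Msgn1, 1 further region of the Msgn1 window and 5 of the T window. None lay in the Tbx6 window. These comparisons share lists and are not independent of each other.

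**Figure D4:**
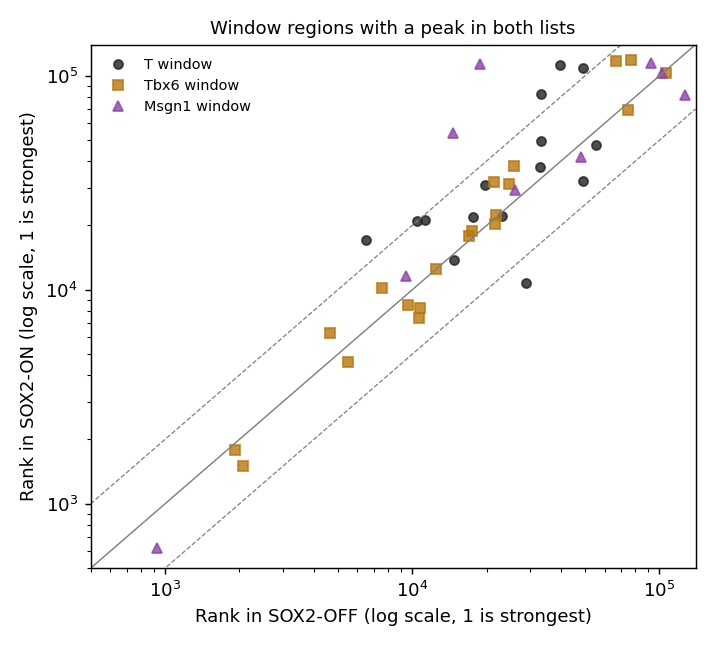
Rank in SOX2-ON against rank in SOX2-OFF (both log scales, 1 is strongest) for the 44 window regions with a peak in both lists, by window; the solid line marks equal ranks and the dashed lines a ratio of 2. Points above the upper dashed line, 7 in all, rank lower in SOX2-ON, and 1 point, near T, lies below the lower line.

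Both the Msgn1 and the T window held such a region away from gene starts. Downstream of Msgn1, the region centred at 30.9 kb (chr12:11177020-11179192) lay in no annotated gene, and its nearest coding start was that of Kcns3. It had a peak in every list, of 1632 bp in SOX2-ON against 2014 bp in SOX2-OFF and 1987 bp in CEpiLC. Its rank was 53836, 14676 and 19216, and its fold enrichment 1.82, 2.86 and 2.29. It was strong in SOX2-OFF and CEpiLC, and the SOX2-ON rank was 3.67 times the SOX2-OFF rank, a ratio reached by 0.753% of shared regions. Its middle was
Msgn1 30.9 kb, chr12:11177877-11178176, plus strand: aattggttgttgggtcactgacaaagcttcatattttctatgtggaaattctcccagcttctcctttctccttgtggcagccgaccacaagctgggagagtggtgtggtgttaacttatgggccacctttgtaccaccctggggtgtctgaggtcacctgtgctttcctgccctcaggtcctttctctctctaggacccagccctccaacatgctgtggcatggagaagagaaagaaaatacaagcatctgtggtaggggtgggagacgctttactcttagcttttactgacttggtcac
with none of the motifs. This region and the start of Msgn1 thus differed in the same direction, with SOX2-OFF and CEpiLC close to each other. By contrast, the region at 11.8 kb had ranks of 29371, 26089 and 26680, which were nearly equal. A region at -23.7 kb was listed in SOX2-OFF alone (536 bp, rank 33730).

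Upstream of T, the region centred at -25.4 kb (chr17:8408566-8409568, in an intron of T2) was strong in all 3 lists. It was 790 bp wide at rank 17052 (SOX2-ON), 996 bp at rank 6496 (SOX2-OFF) and 976 bp at rank 4896 (CEpiLC), the best rank of any region in this window in the last 2. The SOX2-ON rank was 2.63 times that of SOX2-OFF (reached by 2.43% of shared regions) and 3.48 times that of CEpiLC (2.30%). Its middle was
T -25.4 kb, chr17:8408931-8409230, plus strand: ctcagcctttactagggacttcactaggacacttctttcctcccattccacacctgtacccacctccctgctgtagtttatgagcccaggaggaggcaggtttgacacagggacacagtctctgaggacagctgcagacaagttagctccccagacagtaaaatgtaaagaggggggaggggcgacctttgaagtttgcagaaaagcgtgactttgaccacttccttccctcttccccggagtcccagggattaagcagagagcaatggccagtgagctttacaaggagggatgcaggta
with none of the motifs. The order was the opposite at the region centred at -4.5 kb (chr17:8429388-8430369, in no annotated gene), the best ranked of the T window in SOX2-ON. Its rank was 10776 in SOX2-ON against 28987 in SOX2-OFF and 23532 in CEpiLC, its width 982 bp, 799 bp and 732 bp, and its fold enrichment 3.47, 1.68 and 1.85. The SOX2-OFF rank was 2.69 times the SOX2-ON rank, and 3.07% of shared regions had a ratio as far in this direction. Its middle was
T -4.5 kb, chr17:8429729-8430028, plus strand: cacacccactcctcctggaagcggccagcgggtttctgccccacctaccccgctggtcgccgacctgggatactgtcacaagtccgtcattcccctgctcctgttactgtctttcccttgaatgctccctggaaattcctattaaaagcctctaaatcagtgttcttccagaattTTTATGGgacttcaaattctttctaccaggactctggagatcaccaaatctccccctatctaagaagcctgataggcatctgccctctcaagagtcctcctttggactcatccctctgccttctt
with the CDX/HOX motif TTTATGG at base 176. The regions at and upstream of the T start thus did not share 1 order: the -4.5 kb region ranked higher in SOX2-ON than in the other lists, the start and the -25.4 kb region ranked lower there, and the -36.9 kb region had no SOX2-ON peak.

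The remaining regions of the T window with a SOX2-ON rank at least 2 times the SOX2-OFF rank were at -71.9 kb (rank 111927 against 39553), at -45.1 kb, the start of the long non-coding gene Gm16702 (20937 against 10419, and 9615 in CEpiLC), at -13.0 kb (82228 against 33216) and at 21.7 kb (108897 against 49046). Those at -71.9 kb and -45.1 kb had T2, not T, as the nearest coding start. The region at 72.0 kb, downstream of T and nearest to the start of Pde10a, was at 30777 in SOX2-ON compared with 19727 in SOX2-OFF and 12905 in CEpiLC. Not all regions followed this order. At -62.6 kb the ranks were 13728, 14713 and 14356, and at 34.5 kb 22249, 23178 and 27759. In the Tbx6 window, the regions at -80.1 kb (20368, 21551 and 26788) and -76.9 kb (18938, 17479 and 20004), both within Coro1a, differed little between SOX2-ON and SOX2-OFF.

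**Figure D5:**
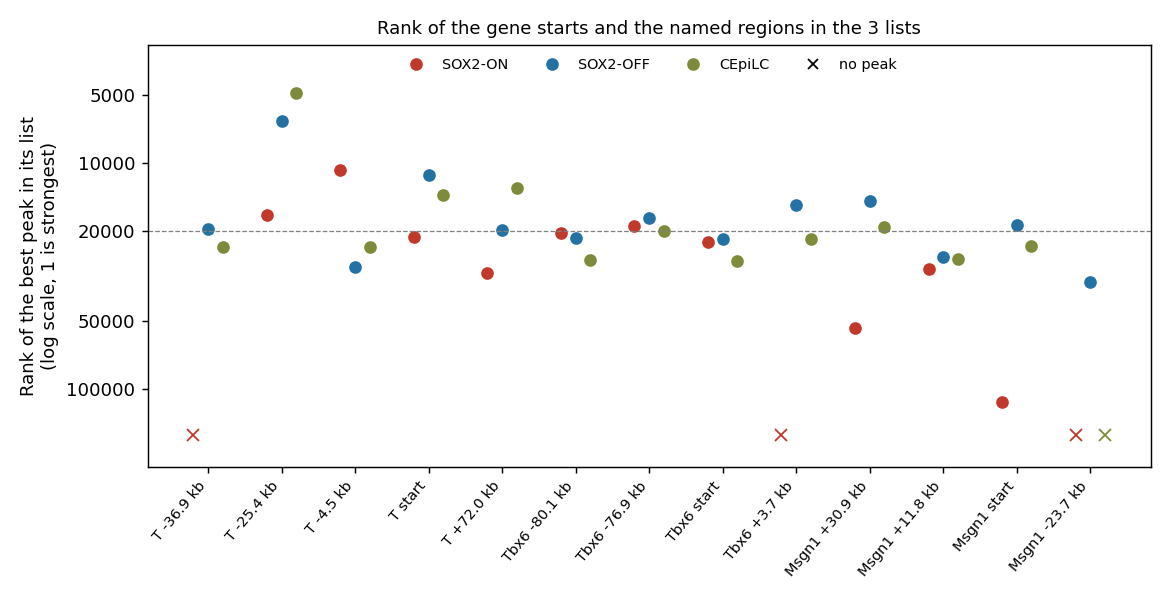
Rank of the best peak (log scale, strongest at the top) in SOX2-ON (red), SOX2-OFF (blue) and CEpiLC (green) at the 3 gene starts and at the regions named by rule, labelled by distance from the gene start; crosses mark a list with no peak and the dashed line rank 20000. Among the SOX2-ON peaks shown, those at the Msgn1 start (113530) and the Msgn1 30.9 kb region (53836) rank lowest and that at T -4.5 kb (10776) highest. SOX2-ON had no peak at T -36.9 kb, Tbx6 3.7 kb and Msgn1 -23.7 kb.

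None of the regions listed in a single sample held a strong peak. The strongest by −log10 p near T were at -85.3 kb for CEpiLC (264 bp, rank 60096), at 5.8 kb, within T, for SOX2-OFF (371 bp, rank 94277) and at 79.4 kb for SOX2-ON (676 bp, rank 74602). Near Tbx6 they were at -8.2 kb for CEpiLC (625 bp, rank 25521), at -94.7 kb for SOX2-OFF (246 bp, rank 71676) and at 54.5 kb for SOX2-ON (375 bp, rank 75553). Near Msgn1 they were at 82.1 kb for CEpiLC (623 bp, rank 108909), at -23.7 kb for SOX2-OFF, as above, and at -86.5 kb for SOX2-ON (265 bp, rank 40896).

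Short motifs were searched on both strands of the central 300 bp of each region. The T-box motif TCACACC was found in 4 of 90 window regions (5.08% of all regions), the TCF/LEF motif CTTTGAT in 8 (4.98%), the SOX motif CATTGT in 6 (15.4%), the POU motif ATTTGCAT in 3 (1.85%), the CDX/HOX motif TTTATTG or TTTATGG in 7 (7.71%) and the GATA motif AGATAA in 11 (14%). The FOXH1 motif AATCCACA or AATACACA was found in 0 of 90, which allows a share of up to 3.33%, against 2.57% of all regions. No motif's letters contain those of another, but matches can overlap at their ends. Of the 8 regions with the TCF/LEF motif 4 lay near T (-83.1, -30.2, -19.3 and -16.1 kb), 1 near Tbx6 (-93.4 kb) and 3 near Msgn1 (79.6 kb, 21.6 kb and the start region). The Msgn1 start region also held the SOX motif. In the 300 bases around each start, 250 before and 50 after, the TCF/LEF motif was found at Msgn1 and the CDX/HOX motif at T, against 3.73% and 7.2% of 32851 promoters. A match is a description and not a site of binding.

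Other genes of the same families were examined for the same measures, and the T-box count includes T and Tbx6. Of 17 T-box genes, 15 had a start peak in SOX2-ON and 16 in each of SOX2-OFF and CEpiLC. Tbx22 had none in any list and Tbx19 had one in SOX2-OFF (rank 89609) and CEpiLC (71434) and none in SOX2-ON. Within 100 kb of 2 of the 17 lay a peak that was strong in SOX2-OFF, shared by CEpiLC and missing from SOX2-ON, against 2.17% of all coding genes. These 2 were T and Tbx6 themselves, so the count repeats the peaks described above. No other T-box gene had such a peak. A strong SOX2-ON peak that SOX2-OFF lacked lay within 100 kb of Tbx4 and Tbx15, 2 of 17, against 8.73%. For none of the 17 was it shared by CEpiLC, which allows a share of up to 17.6%, against 1.56%. Tbx4 lies on chromosome 11, where the lists held unequal shares of peaks.

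Of 30 further genes of the presomitic and paraxial mesoderm, 28 had a start peak (SOX2-ON), 28 (SOX2-OFF) and 29 (CEpiLC). Meox1, a somite homeobox gene, had none in any list and Hes7, an oscillating gene of the segmentation clock, had one in CEpiLC alone (rank 21146). A peak of the same kind, strong in SOX2-OFF, shared by CEpiLC and missing from SOX2-ON, lay within 100 kb of 3 of the 30: Foxc1, a forkhead gene of paraxial mesoderm, Lef1, a transcription factor of the WNT pathway, and Evx1, a homeobox gene of the streak. A strong SOX2-ON peak that SOX2-OFF lacked lay near 1 of the 30, Hoxb1, and CEpiLC shared it. Hes7 and Hoxb1 lie on chromosome 11 and Evx1 on chromosome 6, where the lists held unequal shares of peaks. At the starts, 2 of the 28 genes with a peak in both lists had a SOX2-ON rank at least 2 times the SOX2-OFF rank, against 4.79% of 15046 coding genes: Hoxb1 (61723 against 20845, and 15361 in CEpiLC) and Cdx4 (57998 against 24666, and 32713 in CEpiLC). Among the T-box genes this was Tbr1 alone of 15 (66782 against 16171, and 69198 in CEpiLC). The reverse was found for 0 of the 28, which allows a share of up to 10.7%, and for none of the 15 T-box genes, against 3.46% of coding genes. Beside these, Msgn1 ranked at 113530 against 18762.

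The coding genes whose start peaks were most like those of each member were found by the Euclidean distance of the log10 rank over the 3 lists. A gene with no start peak in a list was placed just after the last peak of that list. For T they were Birc3 (distance 0.0058), Duoxa1 (0.036) and Msl3l2 (0.036). For Tbx6 they were Pax7 (0.015), Sox18 (0.019) and Nkap (0.019). For Msgn1 they were Agbl1 (0.054, ranks of 121786 in SOX2-ON against 17138 in SOX2-OFF and 22087 in CEpiLC), Lag3 (0.060, ranks of 105771, 20926 and 24351) and D6Ertd527e (0.075, not listed in SOX2-ON, 17437 and 25239).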

How the data were processed

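ATAC-seq was performed by the authors on 50000 cells per sample. They ran the nf-core/atacseq pipeline on mm10, with removal of mitochondrial reads, and MACS2 called broad peaks separately for each sample; its version and the shifting of transposase cuts are not given in the sources used here. Each deposited list gives, per peak, a score, a fold enrichment (the ratio of pileup to local background), a −log10 p and a −log10 q, and all end at a q of about 0.1. No read totals were used, so depth is unknown. These values depend on depth, so lists were compared by ranks within each list, fold enrichments are printed beside them, and −log10 q served as a threshold in alternatives; the deposited score was not used. Widths are approximate, since broad calling joins neighbouring sites.

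Genes came from GENCODE M21 on GRCm38, the same build. Peaks were merged, ranked and counted in Python 3.11.15 with pandas 2.3.3, and sequences were read with pysam 0.24.0. The overlap code was tested on simulated intervals. Strong peaks were the 20000 with the highest −log10 p, a peak was missing from a list if under 10% of its length was covered there, and Wilson 95% intervals and limits for a count of 0 (3 counts) cover counting error only. Regions were named by a fixed rule: the start peaks, regions with a strong peak missing from another list, in each window the 3 best ranked regions with no gene start within 1 kb, and in each window and list the strongest region found in no other list. Regions and genes named outside this rule were chosen after their values were seen. The genes, lists and rules were chosen with earlier results of these data known, and the ratio of ranks between lists was chosen after the windows had been seen. Alternatives were another window, threshold, overlap, measure of strength and set of chromosomes.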

Additional observations from a re-analysis of the deposited data

How the results depend on the processing

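No paired analysis was possible because there was a single sample of every kind. Peak calls are limited by depth, which is unknown and may differ between the lists. A peak that is not listed was not called in that library, and whether the site was closed there was not tested. At a −log10 q of at least 5 the windows held 5.55 (SOX2-ON), 6.20 (SOX2-OFF) and 5.71 (CEpiLC) peaks per 100 kb, 59.1% of regions were in all 3 lists and 2.27% in CEpiLC alone, and Msgn1 no longer had a SOX2-ON start peak. At a −log10 q of at least 2, CEpiLC alone had 7.69% and SOX2-ON with CEpiLC 0%. With windows of 50 kb, SOX2-ON with SOX2-OFF had 0%. With peaks in place of regions, shared at 10% of their length, 64.5% were in all 3 lists, 5.5% in SOX2-ON alone, 3.0% in SOX2-OFF alone and 8.0% in CEpiLC alone. At 50% of their length 9.0% were in CEpiLC alone. Genome values at these q thresholds and overlaps are not given here. The shares and densities at them cannot be set against those of the full lists.

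Strong SOX2-OFF peaks missing from SOX2-ON numbered 6 among the strongest 50000, 0 among the strongest 10000, 0 by fold enrichment and 4 where 50% of the length had to be covered, which adds the Msgn1 start and the T 72.0 kb region. Among the strongest 50000 there were 2 of SOX2-ON missing from SOX2-OFF, 2 of SOX2-ON missing from CEpiLC, 1 of SOX2-OFF missing from CEpiLC, 9 of CEpiLC missing from SOX2-ON and 1 of CEpiLC missing from SOX2-OFF. At 50% of the length 1 SOX2-OFF peak was missing from CEpiLC. In windows of 200 kb 1 strong CEpiLC peak was missing from SOX2-ON and 1 from SOX2-OFF. Ranked without chromosomes 6, 8 and 11, 2 CEpiLC peaks were missing from SOX2-ON, at the T -36.9 kb and Tbx6 3.7 kb regions. No genome share is given for these counts of missing peaks, so they describe the windows alone. Genes near a strong SOX2-OFF peak that was missing from SOX2-ON and shared by CEpiLC were counted again, with T and Tbx6 in the T-box list. With the strongest 50000 they numbered 6 of the T-box and 22 of the mesoderm list (29.9% of coding genes). With the strongest 10000 they numbered 0 and 0 (0.041%), and within 50 kb 2 and 1 (1.33%). A strong SOX2-ON peak missing from SOX2-OFF lay near 9 and 16 genes (47.7%) with the strongest 50000. With the strongest 10000 this held for 0 and 0 (0.643%), and within 50 kb for 1 and 0 (5.29%). 

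After the data had been seen, the rank ratios were also computed by fold enrichment and without the 3 chromosomes. By fold enrichment 3 of the 44 shared regions had a SOX2-OFF rank at least 2 times the SOX2-ON rank (6.98% in the genome). The reverse held for 7 (8.66%). Without the 3 chromosomes these numbers were 1 (5.85%) and 6 (6.22%). The log2 ratio of the SOX2-ON to the SOX2-OFF rank was 2.81 and 2.38 under these alternatives at the Msgn1 start (2.60 by −log10 p over all chromosomes), 2.05 and 1.85 at Msgn1 30.9 kb (1.88), 2.19 and 1.41 at T -25.4 kb (1.39), and -2.08 and -1.42 at T -4.5 kb (-1.43). By fold enrichment it changed sign at the Tbx6 start (-0.44 from 0.04) and at Tbx6 -76.9 kb (-0.03 from 0.12), and 79.2% of CEpiLC peaks were stronger than the Tbx6 start peak, against 20.8% by −log10 p. Within 250 bp of the start, Tbx6 had no SOX2-ON peak. Motif shares depended on the stretch: in whole regions 22.2% held the T-box motif (13.1% of all regions in the genome), 27.8% the TCF/LEF motif (12.7%), 36.7% the SOX motif (32.8%), 6.67% the POU motif (4.74%), 17.8% the CDX/HOX motif (18.9%), 33.3% the GATA motif (30.5%) and 4.44% the FOXH1 motif (6.84%), which the central 300 bp lacked. The cause of these changes was not tested.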
